A study of Rattus norvegicus with 6 samples.

Results

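The genes described here are those of the cytosolic ribosomal proteins, taken from an RNA-seq table of RBL-2H3 cells by their symbols (symbols beginning Rpl or Rps followed by a number, with the P stalk proteins and Rpsa, and without the Rps6k kinases). This rule took 110 of the 18286 rows of the table, 62 of the large subunit and 48 of the small subunit. RBL-2H3, a line from a rat basophilic leukemia, has the IgE receptor of mast cells on its surface and serves as their model. The 3 control libraries, whose treatment label is none, were set against 3 libraries of cells labelled with dihydrocoumarin (DHC), a lactone related to coumarin. One protocol text covers all 6 samples, with IgE against dinitrophenyl at 50 ng/ml for 12 h and then the antigen DNP-HSA at 100 ng/ml for 4 h. Whether the control cells received both, and the dose and duration of DHC, are not in the labels. The labels also do not say that replicates were separate cultures, so the p-values speak of the variation among these 6 libraries only, and that may be technical.

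The cytosolic ribosome is built from a large and a small subunit, each a scaffold of ribosomal RNA with its own set of proteins. Ribosomal protein genes are transcribed at high rates in growing cells. Their mRNAs begin with a run of pyrimidines at the cap, the terminal oligopyrimidine (TOP) motif, through which the kinase mTOR and the binding protein LARP1 control their translation together. Mammalian genomes also hold many processed copies of these genes and a few expressed paralogs, such as Rpl39l, a form of Rpl39 known mainly from testis.

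The 110 rows were not all ribosomal protein genes. By symbol, 73 were standard ribosomal proteins (43 large, 30 small), 7 were homologous forms with an expression pattern or gene of their own, 8 were numbered like-loci, 21 carried a pseudogene symbol, and Rps19bp1 encodes a protein that binds RPS19. Of 79 standard symbols looked for, 75 had a row, 73 of them by the rule. One outside it, Fau, encodes a fusion with a ubiquitin-like protein. Rplp1, Rpl13, Rpl38 and Rps26 were not analysed here. The test covered 98 of the members, those with a mean of at least 1 RPKM (reads per kilobase of exon, scaled to library size) over the 6 libraries, and all 73 standard genes were among them. The 12 members below this level had between 0 and 18 reads in any library, and 8 of them carried a pseudogene symbol; the other 4 were Rpl3l, the muscle form of Rpl3, Rps4y2, Rps15al2 and Rps19l1. Libraries held between 29084976 and 34170922 reads in genes, so that 3 reads, the limit that a count of 0 allows, came to between 0.0878 and 0.103 RPM (counting error only). All 8 mast cell markers looked for were detected and tested, among them Fcer1a at 106.7 and Ms4a2 at 320.9 RPKM in the controls, both subunits of the IgE receptor. They were not level between the groups. With DHC 1 was called higher (Ms4a2) and 4 lower (Gata2, Il1rl1, Kit and Hdc), so 62.5% were called against 34.5% of all tested genes. Gata2 went from 344.6 ± 10.3 RPKM in control to 69.9 ± 1.90 in DHC (SD, n = 3). Of 18 markers of other cell types, 11 had a row and 3 passed the filter, the highest being Cd3e, a T cell receptor subunit, at 34.6 ± 2.85 RPKM in control and 41.8 ± 1.69 in DHC (SD, n = 3). The other rows were low, Krt8 being next at 1.89 and 2.19 RPKM, and 3 of the 11 were at or under the floor. Summed, the list took 0.00543% to 0.00651% of reads in control and 0.00701% to 0.00750% in DHC, and its part in the results was not tested.

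Together the members took a larger share of the reads in the DHC libraries. In control the share was 5.42%, 5.55% and 5.54%, and in DHC it was 5.81%, 6.06% and 5.90%. Every DHC library thus stood above every control library. The means were 5.50% ± 0.0725 and 5.92% ± 0.127 (SD, n = 3), a relative difference of 7.60%. The exact two-sided permutation test gave p = 0.1, the smallest value that 3 libraries against 3 can give. The large subunit went from 3.87% ± 0.0519 to 4.17% ± 0.0862 of reads and the small subunit from 1.64% ± 0.0207 to 1.75% ± 0.0405, relative differences of 7.88% and 6.93%, each with the same exact p of 0.1. Large subunit reads were between 2.362 and 2.3685 times the small subunit reads in the control libraries and between 2.378 and 2.3895 times in the DHC libraries, a difference in the ratio of 0.0211 (exact permutation p = 0.1). As a share of summed RPKM, which weights each gene per length, the members went from 11.8% ± 0.162 to 12.2% ± 0.215, a relative difference of 3.76%, so the size of the shift is smaller on that scale.

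**Figure D1:**
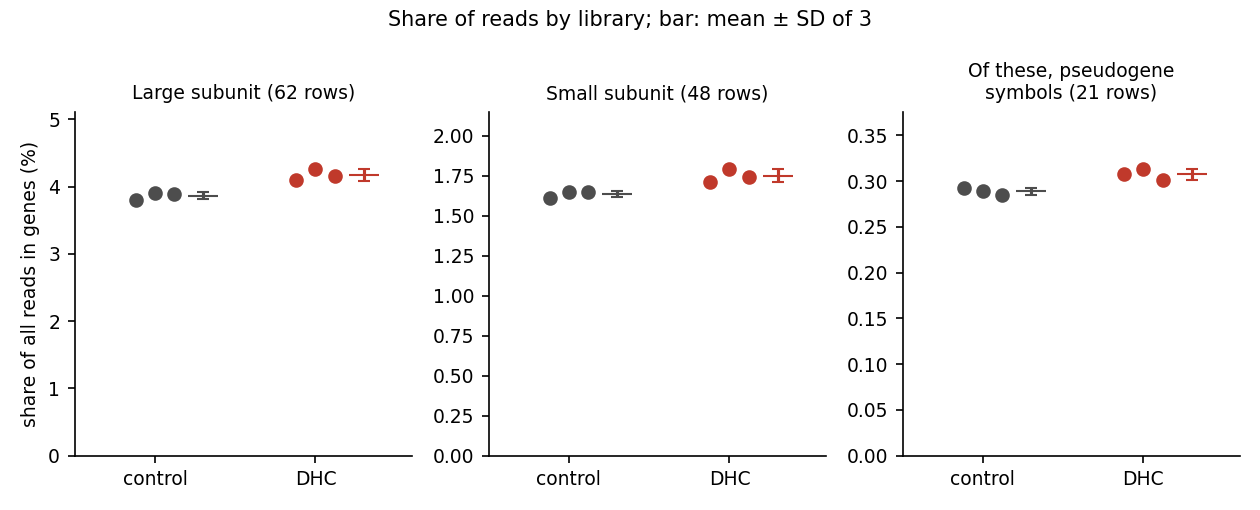
Share of all reads in genes (y axis, percent, from 0) for the large subunit rows, the small subunit rows and the rows with a pseudogene symbol, by group. Points are the 3 libraries of each group and bars the mean ± SD. In all 3 panels every DHC library lies above every control library, and the large subunit means are 3.87% and 4.17%. Most of the share of the rows with a pseudogene symbol is Rpl6-ps1.

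Other classes of short or unusual RNAs moved with the groups. Mitochondrially encoded genes took 3.44% ± 0.0956 of reads in control and 4.00% ± 0.127 in DHC, and replication-dependent histone genes, whose mRNAs mostly lack a poly(A) tail, took 0.0747% ± 0.00267 and 0.122% ± 0.00101. Ribosomal protein rows are short, with a median exon length of 631 bases against 2100 for the other tested genes. Other genes of up to 500 bases had a median log2 difference of 0.12, those of 500 to 1000 bases 0.09 and those above 4000 bases 0.03, while the members had 0.08, 0.09 and, for the 1 member above 4000 bases, 0.08. In the longer classes the members lay above other genes of like row length. The medians were 0.13 for 18 members against 0.05 between 1000 and 2000 bases, and 0.14 for 7 members against 0.04 between 2000 and 4000 bases. These lengths are those of the annotated rows and need not be those of the transcripts. Among the long member rows, Rpl21 (2003 bases) joins exons on 4 chromosomes, and Rpl39 (2282 bases) and Rps2 (2018 bases) on 2 each. With mitochondrially encoded genes left out of the total, the members' share differed by 0.469 percentage points, against 0.418 with them. The part of RNA selection in the ribosomal protein difference was not tested.

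Gene by gene, the standard ribosomal proteins rose a little or did not pass the test, and none was called lower on the scale of library totals. Of the 98 tested members 12 passed an adjusted p of 0.05 in limma on log2(RPKM + 1), which is 12.2%, against 34.5% of all 10667 tested genes. Higher with DHC were 9 members (9.18%, against 18.4% of all genes), all of them standard, and lower were 3 (3.06%, against 16.1%), none of them standard. The large subunit had 6 higher and 2 lower of 60 tested, and the small subunit 3 higher and 1 lower of 38. The direction was shared more widely than the calls. The log2 difference was above 0 in 70 of 73 standard genes, with a median of 0.10 (0.12 in the large and 0.09 in the small subunit), beside 6212 of 10667 and a median of 0.05 for all tested genes. None of the 3 standard genes below 0 passed, and the lowest of them was at -0.04. At an unadjusted p below 0.05, 23 standard genes were higher and 0 lower, and the share over all genes at that limit is not given here. By limma-voom on the recovered reads 19 of the 73 were higher and 0 lower. Over all 10667 tested genes limma-voom called 2305 higher and 1938 lower, so the share of higher calls was similar and that of lower calls was not.

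These counts depended on the scaling and on transcript length. With trimmed mean factors, which move the median of all genes from 0.05 to -0.0046, 1 member (Rpl21) was called higher and 3 lower, and the median of the standard genes was 0.04, with 56 of 73 above 0. With the trend of each library on exon length removed, 4 members were higher and 3 lower, and the median of the standard genes was 0.03 with 52 of 73 above 0, beside 0.04 for all genes. Without control replicate 2 or without DHC replicate 2 only Rpl21 was called higher and only Rpl39l lower. Without DHC replicate 3 the counts were 5 higher and 2 lower, without control replicate 3 they were 3 and 2, and without both libraries numbered 1 they were 26 and 4. In that last setting 26 of 97 tested members were higher, beside 1760 of 10665 genes in all. Members were then called higher more often than all genes, unlike in the main fit.

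**Figure D2:**
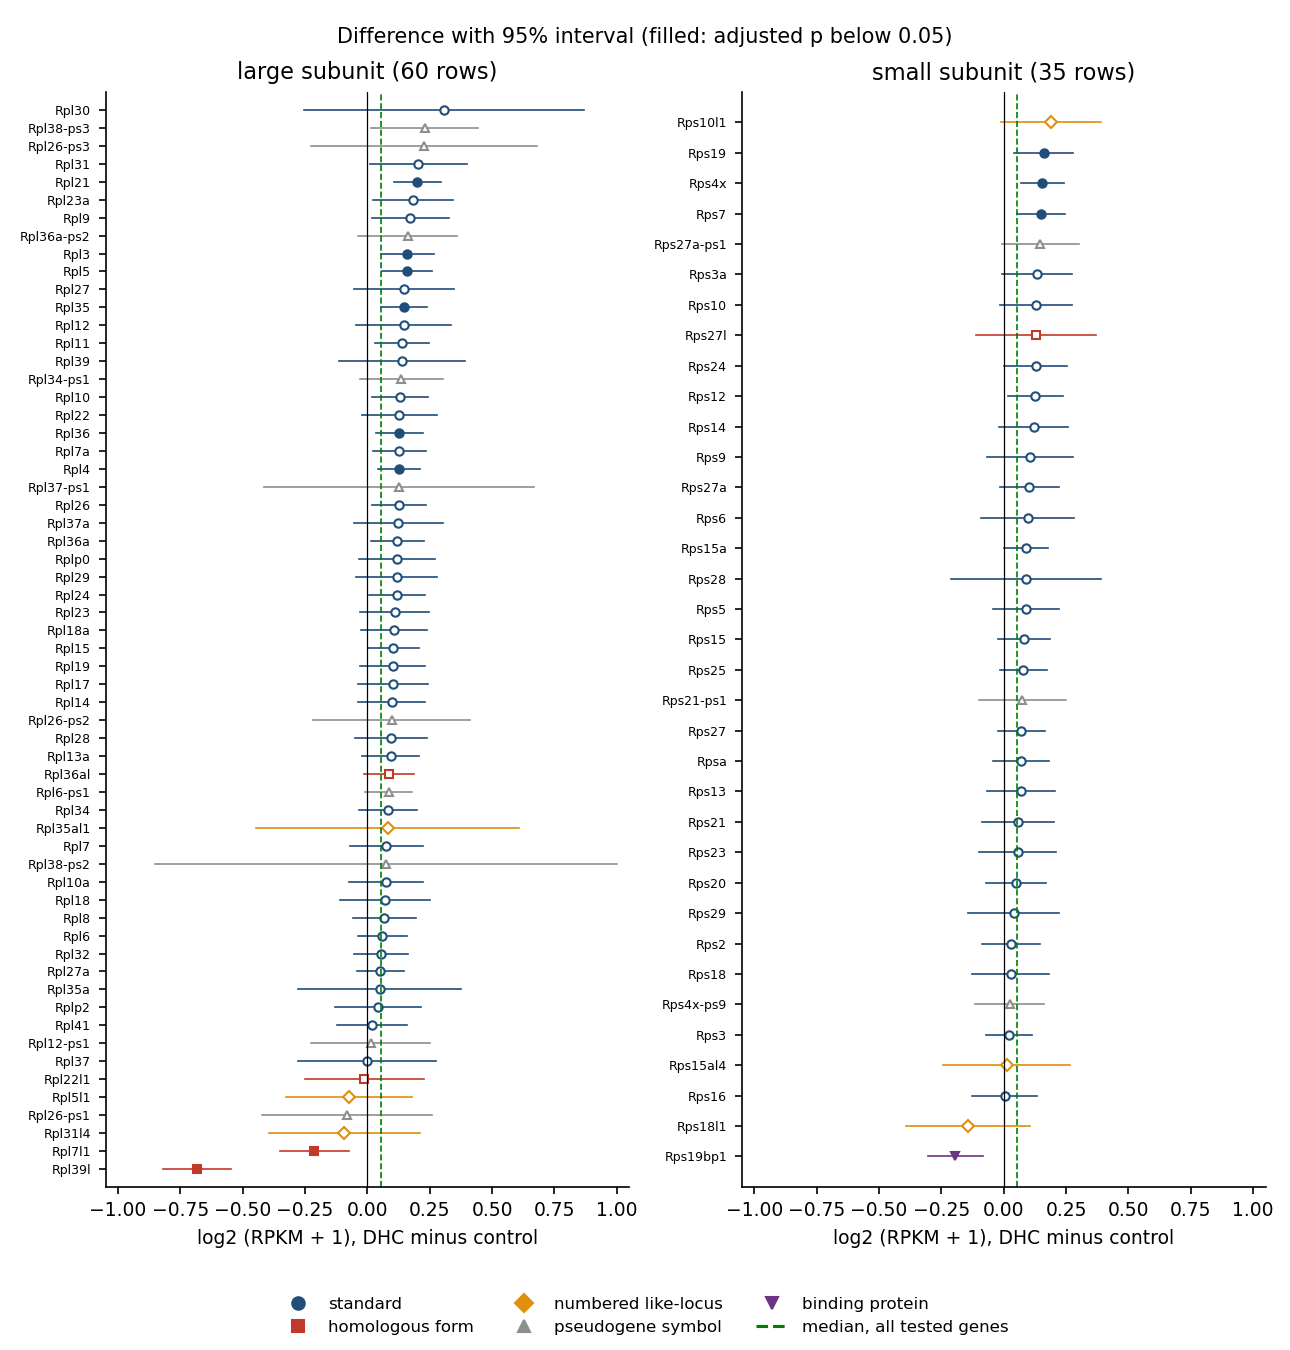
Difference between DHC and control in log2(RPKM + 1) (x axis) with its 95% interval for the 60 tested large subunit rows and 35 of the 38 tested small subunit rows (y axis, ordered by difference), with marker shape by class and filled markers for an adjusted p below 0.05. The green line is the median of all tested genes at 0.05. Most standard genes sit between 0 and 0.2, and Rpl39l is far to the left at -0.68.

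Rpl21, a large subunit protein, had the lowest p of the standard genes. It measured 752.5, 763.8 and 726 RPKM in control and 857, 878 and 842.5 RPKM in DHC, a log2 difference of 0.20 ± 0.04 (SE; limma, adjusted p = 0.00762). The groups did not overlap. The row joins exon blocks on 4 chromosomes and both strands, so reads of copies may be part of it. Rps4x, an X-linked small subunit protein, measured 403, 412 and 412 RPKM in control and 447, 461.5 and 458 RPKM in DHC, a log2 difference of 0.16 ± 0.04 (limma, adjusted p = 0.0150). Here too the DHC libraries all stood above the controls, and the SDs within the groups were 4.93 and 7.32 RPKM.

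Rpl5 and Rpl11 carry 5S ribosomal RNA into the large subunit and, when free, bind the p53 regulator MDM2. Rpl5 measured 2127, 2006 and 2087 RPKM in control and 2266, 2363 and 2321 RPKM in DHC (log2 difference 0.16 ± 0.04, limma adjusted p = 0.0247). Rpl11 lay just outside the threshold, with 105, 102 and 98.0 RPKM in control and 108, 115 and 113 RPKM in DHC (0.14 ± 0.05, limma adjusted p = 0.0504). Both genes had higher values in all DHC libraries than in any control library. Rpl3 and Rpl4 are core proteins around the catalytic centre and the exit tunnel. Rpl3 went from 340.7 ± 11.7 to 381 ± 12.5 RPKM and Rpl4 from 820.2 ± 10.4 to 895.6 ± 11.5 RPKM (SD, n = 3), log2 differences of 0.16 and 0.13. Rpl35, at the exit tunnel, went from 2447 ± 36.2 to 2708 ± 32.1 RPKM, and Rpl36, a small protein of the large subunit, from 1007 ± 31.8 to 1101 ± 12.0 RPKM, log2 differences of 0.15 and 0.13. In the small subunit, Rps7 went from 406 ± 13.0 to 451 ± 9.13 RPKM and Rps19, the gene most often mutated in Diamond-Blackfan anaemia, from 358 ± 20.8 to 399.5 ± 9.10 RPKM, with log2 differences of 0.15 and 0.16 and a limma adjusted p of 0.0449 for Rps19. Across the 9 called genes the ratio of means ran from 1.09 (Rpl4) to 1.15 (Rpl21). Most of these calls depended on the settings. Of 20 alternatives, Rpl21 was called in 20, Rps4x in 15, Rpl3 in 12, and Rpl4 and Rps7 in 11 each. Rpl5 and Rpl35 were called in 10 each and Rps19 in 7, and the count for Rpl36 is not given here.

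Most of the other members can be bounded closely. The 95% interval of the difference lay within 1.5-fold in either direction for 92 of 98 tested members (93.9%, against 73.2% of all tested genes) and for 72 of the 73 standard genes. The median coefficient of variation within a group was 5.15% for members and 7.38% for all tested genes, and the median size of the log2 difference was 0.10 and 0.19. In 22 members (22.4%) all DHC libraries were above all control libraries, against 28.1% of all genes, and in 3 (3.06%) all were below, against 21.6%. Among the 878 other genes of at least 100 RPKM, 381 were called (43.4%) and the median size of the difference was 0.15. Their median coefficient of variation was 4.32%, and 87.9% of their intervals lay within 1.5-fold. Low spread within the groups was therefore not particular to the members, whose median level was 402 RPKM against 11.2 for all tested genes.

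**Figure D3:**
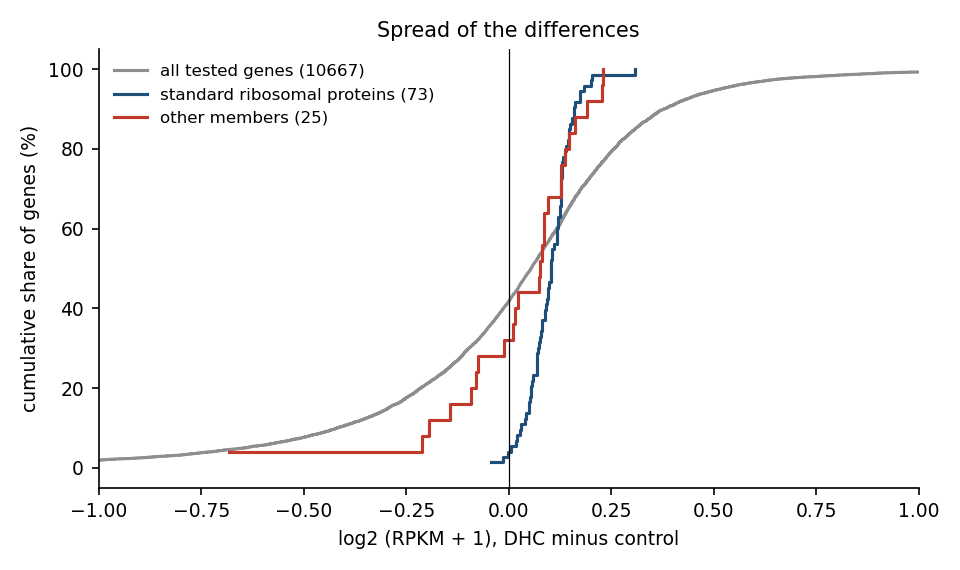
Cumulative share of genes (y axis, percent) by the log2 difference between DHC and control (x axis, drawn from -1 to 1) for all 10667 tested genes, the 73 standard ribosomal proteins and the other 25 tested members. The standard genes form a steep curve just right of 0 (median 0.10, range -0.04 to 0.31), while all genes spread widely around a median of 0.05.

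Several of the members with the highest levels had a difference of like size and were not called, while Rpl35 and Rpl5, at mean levels of 2578 and 2195 RPKM, were. Rpl19, a large subunit protein, had the highest level and 6.12% of all member reads. It measured 4509, 4977 and 4900 RPKM in control and 4918, 5246 and 5269 RPKM in DHC, groups that overlapped (log2 difference 0.10, 95% interval -0.03 to 0.23, limma adjusted p = 0.196). Rps12 of the small subunit had higher values in every DHC library and did not pass, with 2162 ± 31.6 RPKM in control and 2362 ± 114 in DHC (limma adjusted p = 0.0762). Rpl14 was at 3616 ± 162 and 3872 ± 208 RPKM and Rpl12, of the stalk base, at 3020 ± 297 and 3333 ± 204 RPKM; both overlapped between groups. Rps23, of the decoding centre, had a mean of 2137 RPKM over the 6 libraries and a smaller log2 difference of 0.06, with overlapping groups (limma adjusted p = 0.545).

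When each library was scaled to the summed reads of the members in place of all its reads, the members were nearly level with each other. This scaling itself puts the centre of the members near 0 (median log2 difference -0.0069), so the loss of higher calls follows in part from it. It also moves other genes down. Of the 10667 genes tested on library totals, 987 were higher and 2299 lower on this scale. Only departures of single members from the rest can be read from it. On that scale 0 members were higher and 3 lower by limma, against 30.8% of 10668 genes called in either direction, and limma-voom gave the same 0 and 3. At an unadjusted p below 0.05 the count was also 0 higher and 3 lower, and among the 73 standard genes 0 passed in either direction. The 3 lower rows were again Rpl39l, Rpl7l1 and Rps19bp1, with log2 differences of -0.79, -0.32 and -0.30. With the trend on exon length in each library taken out first, 4 members were called higher and 3 lower on this scale.

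Rpl39l had the largest difference of all tested members. It measured 473.6, 430.5 and 411 RPKM in control and 276, 278 and 263 RPKM in DHC. The lowest control library stood far above the highest DHC library. The means were 438 ± 32.1 and 272.5 ± 8.21 RPKM (SD, n = 3), which is a log2 difference of -0.68 ± 0.06 (SE; limma, adjusted p = 0.000161), 1.61-fold lower with DHC. The call was kept in all 20 alternatives tried, with log2 differences between -0.77 and -0.62. The row lies at chr10:5529589-5533695 on the minus strand of Rnor_6.0 with 3 exon blocks. Rpl39 itself, one of the smallest ribosomal proteins, measured 64.5, 59.3 and 53.5 RPKM in control and 74.2, 66.2 and 55.9 RPKM in DHC, with overlapping groups (limma adjusted p = 0.354). Per length Rpl39l was thus 7.34, 7.26 and 7.68 times Rpl39 in control and 3.72, 4.21 and 4.71 times in DHC. This ratio rests on a Rpl39 row with exons on 2 chromosomes, and the genes have near-identical coding sequences, so how reads that fit both were assigned can set it.

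Rpl7l1, a homolog of Rpl7 linked to assembly of the large subunit, was the other large subunit row to fall. It measured 142, 142 and 127 RPKM in control and 124, 114 and 116 RPKM in DHC, a log2 difference of -0.21 ± 0.06 (limma, adjusted p = 0.0277). The groups did not overlap, but the gap between the lowest control and the highest DHC library was smaller than the SD of either group. It lies at chr9:16508799-16513120 on the plus strand with 6 exon blocks. Rpl7, the ribosomal protein proper, was at 276.5 ± 18.6 and 291 ± 15.9 RPKM (limma adjusted p = 0.374). Rps19bp1, also known as AROS, binds RPS19 and the deacetylase SIRT1 and is no ribosomal protein. It measured 60.6, 60.5 and 61.0 RPKM in control and 52.7, 50.8 and 55.3 RPKM in DHC, a log2 difference of -0.19 ± 0.05 (limma, adjusted p = 0.0166). Its control libraries had an SD of 0.283 RPKM and all stood above the DHC libraries. It lies at chr7:121485800-121489078 on the minus strand. Over the alternatives Rpl7l1 was called in 15 of 20 and Rps19bp1 in 17 of 20, each lower with DHC in every one.

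**Figure D4:**
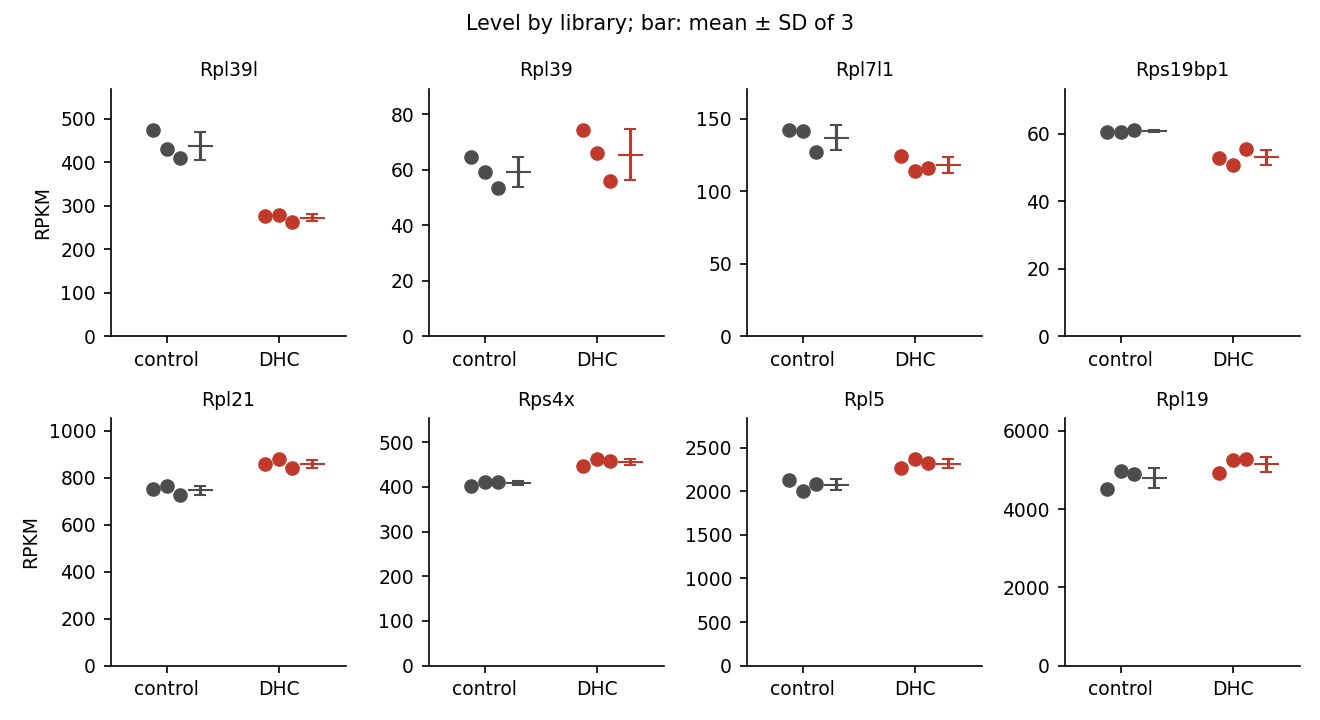
RPKM (y axis, linear from 0, scaled per gene) of 8 genes in the 3 control and 3 DHC libraries, with points for libraries and bars for mean ± SD. Rpl39l falls from 438 to 272.5 RPKM, Rpl39 overlaps between groups, and Rpl21, Rps4x and Rpl5 are higher in every DHC library.

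The other paralogs gave no call. Rpl22l1, a homolog of Rpl22 that can replace it in ribosomes, measured 15.8, 14.9 and 12.7 RPKM in control and 12.6, 15.4 and 14.9 RPKM in DHC (log2 difference -0.01, 95% interval -0.25 to 0.23), while Rpl22 was at 604 and 662 RPKM. Rpl36al, at 299.6 ± 7.00 and 318 ± 11.2 RPKM, and Rpl36a, at 2312 ± 61.5 and 2513 ± 92.8 RPKM, did not pass (limma adjusted p = 0.158 and 0.0803). Rps27l, a p53-induced form of Rps27, was at 15.5 ± 2.43 and 16.9 ± 0.711 RPKM (limma adjusted p = 0.363), against a mean of 446 RPKM for Rps27. Of the numbered like-loci 6 of 8 were tested and 0 passed by limma, also at an unadjusted p below 0.05 and by limma-voom. Rps10l1 had the highest level of them, 162 ± 5.29 RPKM in control and 186 ± 23.2 in DHC (limma adjusted p = 0.124), and Rps18l1 was at 17.1 ± 0.909 and 15.5 ± 2.55 RPKM (limma adjusted p = 0.334). Rpl5l1 averaged 18.8 RPKM, Rps15al4 9.13, Rpl31l4 8.03 and Rpl35al1 5.12, compared with 2195 for Rpl5, 341 for Rps15a, 87.4 for Rpl31 and 6.41 for Rpl35a. Rpl3l had 0 reads in all 3 control libraries and 6, 2 and 2 reads in DHC, which sets no fold change.

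Rows with a pseudogene symbol were shifted to a like degree. Of 21 such rows 13 were tested and 12 of these had a log2 difference above 0, with a median of 0.10 and a share of reads of 0.289% ± 0.00391 in control and 0.307% ± 0.00616 in DHC (exact permutation p = 0.1). Most of this share was 1 row, Rpl6-ps1, with 79064, 74763 and 86402 reads in control and 80909, 87021 and 77364 in DHC. The share therefore says little of the other rows. None of the 13 passed by limma or limma-voom, and 1 was higher at an unadjusted p below 0.05. Rpl6-ps1 had 2833 RPKM on average, more than Rpl6 at 2465, and Rps21-ps1 had 194 RPKM against 147 for Rps21. Others were far below the parent, such as Rpl12-ps1 at 3.34 RPKM beside 3177 for Rpl12. The lowest tested rows were Rpl38-ps2 at 1.06 and Rpl26-ps1 at 2.05 RPKM in the large subunit, and Rps4x-ps9 at 13.3 RPKM was among the lowest in the small subunit. Reads of a processed copy and its parent differ at few bases, and how reads with several places were treated is not known here. These levels are therefore uncertain for parent and copy alike.

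The row can also miss the gene. The standard genes ran from 5.87 RPKM (Rpl30) and 6.41 (Rpl35a) to 4970 (Rpl19), although these proteins are present in equal number in the ribosome. The Rpl30, Rpl37 and Rps13 rows are each a single exon block, on a chromosome other than the one RefSeq gives for the gene in GRCr8, and 6 other standard rows, among them Rpl35a, Rpl39 and Rpl21, join exons on several chromosomes. The remaining 64 standard genes, of several exon blocks on 1 chromosome, had 8 higher calls, 0 lower and a median log2 difference of 0.10, the same as for all standard genes.

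For the called genes other than Rpl39l the bases around the annotated start are shown, because the pyrimidine run at the cap is the feature that ribosomal protein mRNAs are known to share. RefSeq promoters (build GRCr8, 250 bases before to 50 after each start) matched 67 member symbols, 1 of which had several entries and was left out. The lines below run 5' to 3' on the gene's strand from 25 bases before the annotated start to 15 bases after it, with the longest run of C and T in capitals where it has at least 8 bases.
Rpl21 (chr12:13386139-13386178, minus strand): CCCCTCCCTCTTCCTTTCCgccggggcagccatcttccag
Rpl35 (chr3:43165907-43165946, minus strand): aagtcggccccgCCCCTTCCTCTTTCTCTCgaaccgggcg
Rpl5 (chr14:1995211-1995250, minus strand): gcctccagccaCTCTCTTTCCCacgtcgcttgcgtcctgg
Rpl3 (chr7:113507976-113508015, minus strand): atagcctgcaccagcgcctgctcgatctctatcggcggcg
Rpl4 (chr8:73566452-73566491, plus strand): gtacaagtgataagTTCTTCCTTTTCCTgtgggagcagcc
Rpl36 (chr9:1533755-1533794, plus strand): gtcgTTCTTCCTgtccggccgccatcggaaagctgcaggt
Rps4x (chrX:71342907-71342946, minus strand): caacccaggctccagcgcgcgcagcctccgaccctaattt
Rps7 (chr6:50999431-50999470, minus strand): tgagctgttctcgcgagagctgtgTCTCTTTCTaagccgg
Rps19 (chr1:89608663-89608702, plus strand): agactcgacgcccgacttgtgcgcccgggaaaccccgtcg
Rpl7l1 (chr9:21695693-21695732, plus strand): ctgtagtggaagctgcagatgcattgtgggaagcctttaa
Rps19bp1 (chr7:113693009-113693048, minus strand): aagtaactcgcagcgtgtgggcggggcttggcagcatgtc
Of the 9 genes higher with DHC, 6 held such a run and Rpl3, Rps4x and Rps19 held none in this window, and neither did Rpl7l1 or Rps19bp1. The runs of Rpl21, Rpl5 and Rpl36 end before the annotated start, so by this annotation they are not in the mRNA. Annotated starts can lie some bases from the real cap site, so a run that is missing here is missing only from these 40 bases. Likewise, a run found here need not lie at the cap.

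A run of at least 8 anywhere in this window was common to ribosomal protein genes whether they were called or not. It was found in 42 of 57 standard genes with a single entry (73.7%; 71.4% of the large and 77.3% of the small subunit), against 16.0% of all 33469 promoters and 1018 of 6766 promoters of tested genes. The 42 genes with a run had a median log2 difference of 0.10 and the 15 without one 0.13. In the 300 bases, the letters TTCCGG on either strand, the core bound by ETS family factors, were in 50.9% of the standard genes, 32.9% of tested genes and 5004 of 33469 promoters in all. The letters TATAAA on either strand were in 10.5%, 6.13% and 14.2%. These matches describe the sequence and are not evidence of binding.

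The P stalk recruits elongation factors to the large subunit. Its Rplp0 measured 542, 606 and 623 RPKM in control and 602, 668 and 653 RPKM in DHC, and Rplp2 measured 398, 403 and 363 RPKM in control and 425, 416 and 359 RPKM in DHC. Both overlapped between groups and did not pass (limma adjusted p = 0.196 and 0.689). Rps6, the target of the S6 kinases, was at 179 ± 13.8 and 192 ± 17.4 RPKM (limma adjusted p = 0.379). Of 17 tested genes mutated in Diamond-Blackfan anaemia, 4 were higher (Rps19, Rpl5, Rpl35 and Rps7) and 0 lower, so 23.5% were higher against 18.4% of all tested genes. Their median log2 difference was 0.13, and 16 of 17 were above 0. Outside the symbol rule, Fau and Rack1, a scaffold on the small subunit, had log2 differences of 0.08 and 0.02 and did not pass by limma, at an unadjusted p below 0.05 or by limma-voom.

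Other mRNAs with a TOP start were looked at in the same way. Of 5 elongation factor genes 1 passed, Eef1a1, which brings aminoacyl-tRNA to the ribosome, with 3228, 3162 and 3210 RPKM in control and 3512, 3635 and 3618 in DHC (log2 difference 0.17 ± 0.04, limma adjusted p = 0.0172). All 5 were above 0, with a median of 0.14, and the 1 call is 20.0% of them, against 34.5% of all tested genes. Among 12 further TOP mRNAs Naca, a chaperone at the exit tunnel, was higher (0.17 ± 0.05, limma adjusted p = 0.0278). The intermediate filament gene Vim was lower, from 2194 ± 33.2 to 1486 ± 18.7 RPKM (-0.56 ± 0.04, limma adjusted p = 5.81e-05), and the median of the 12 was 0.11. The list thus held 1 called gene in each direction, 16.7% of its genes.

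The genes that control TOP mRNAs went both ways. Of 17 tested genes of mTOR signalling and TOP control, 3 were higher and 5 lower, with a median log2 difference of 0.0037, so 47.1% passed against 34.5% of all tested genes. Larp1, which binds the TOP cap, measured 58.8, 58.7 and 56.2 RPKM in control and 44.5, 45.2 and 43.6 RPKM in DHC (-0.37 ± 0.04, limma adjusted p = 0.000716). Akt1s1, an inhibitory partner of mTOR complex 1, went from 24.6 ± 1.1 to 18.1 ± 1.89 RPKM (limma adjusted p = 0.00567), and Rptor, its scaffold subunit, from 2.98 ± 0.155 to 1.84 ± 0.239 RPKM (limma adjusted p = 0.00997). The genes for repressors that bind the cap-binding protein eIF4E went opposite ways. Eif4ebp2 was higher, from 2.67 ± 0.361 to 4.05 ± 0.278 RPKM (limma adjusted p = 0.0133), and Eif4ebp1, at a far higher level, was lower, from 125.8 ± 15.9 to 98.0 ± 0.593 RPKM (limma adjusted p = 0.0169). Of the mTOR inhibitors, Deptor was lower (-0.38, limma adjusted p = 0.0396) and Tsc1 higher (0.39, limma adjusted p = 0.0367). Eif4ebp1, Deptor and Tsc1 were added to the named genes after their values were seen. Larp1 and Akt1s1 were called in all 20 alternatives, Eif4ebp1 in 18, Deptor in 13 and Tsc1 in 12. Of 8 tested genes with an Rps6k symbol, not all of them kinases of Rps6, 1 was higher and 2 lower, 37.5% against 34.5% of all tested genes. The higher one, Rps6kb1, was also counted among the 3 higher genes of mTOR signalling and TOP control. Rps6kb1, the kinase of Rps6, rose from 23.4 ± 0.641 to 27.1 ± 0.765 RPKM (limma adjusted p = 0.0169), Rps6ka1 fell from 24.3 ± 2.22 to 20.0 ± 0.157 RPKM (limma adjusted p = 0.0260) and Rps6kc1 from 8.11 ± 0.333 to 6.90 ± 0.193 RPKM (limma adjusted p = 0.0492). Rps6kb1 was called in 15 of 20 alternatives, Rps6ka1 in 14 and Rps6kc1 in 8.

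Among 16 genes for chaperones and nuclear import of ribosomal proteins, 3 were higher and 2 lower, which is 31.2% called against 34.5% of all tested genes. Their median log2 difference was 0.14. Ltv1, an assembly factor that leaves the small subunit late, measured 60.4, 64.6 and 66.1 RPKM in control and 72.9, 86.9 and 83.4 RPKM in DHC (0.34 ± 0.07, limma adjusted p = 0.00990). Ipo7, an importin that carries ribosomal proteins, went from 128 ± 3.33 to 145 ± 2.64 RPKM (limma adjusted p = 0.0144). Lower were Pdcd2l, a relative of the Rps2 chaperone Pdcd2, from 20.8 ± 2.25 to 15.9 ± 0.156 RPKM (limma adjusted p = 0.0117), and Grwd1, which escorts Rpl3, from 13.2 ± 0.667 to 9.88 ± 1.82 RPKM (limma adjusted p = 0.0403).

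Within the groups, members differed by library number. The library numbered 1 held the highest value of both groups in 28 members (28.6%, against 22.7% of tested genes) and the lowest of both in 31 (31.6%, against 17.4%), and that numbered 3 the lowest of both in 30 (30.6%, against 16.9%). Rpl37 shows the first case, with 857, 776 and 683 RPKM in control and 869, 804 and 649 RPKM in DHC in the order of the numbers. What sets the libraries apart was not tested, and the labels tie no preparation or date to the numbers.

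**Figure D5:**
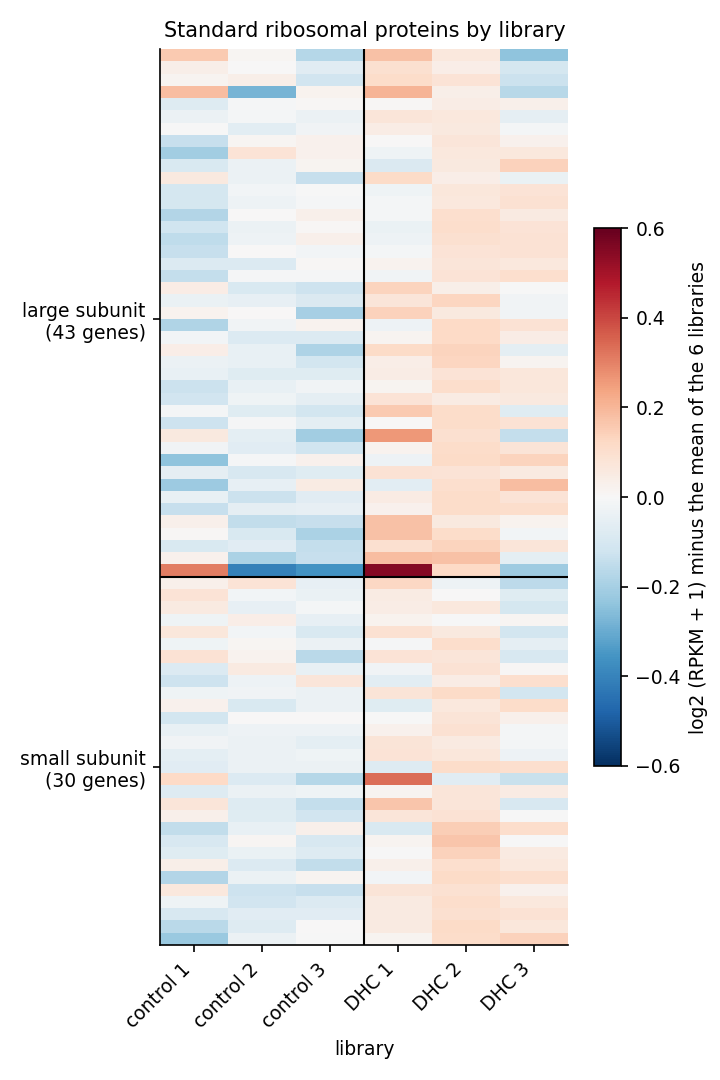
Level of the 73 standard ribosomal proteins in each library (columns), as log2(RPKM + 1) minus the mean of the 6 libraries (colour, from -0.6 to 0.6), with 43 large subunit genes above 30 small subunit genes, ordered by difference. Most rows are blue in control and red in DHC by small amounts, and in library 1 of both groups some rows stand out from the libraries numbered 2 and 3.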

How the data were processed

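The 6 libraries were compared as labelled, 3 control against 3 DHC. The authors deposited RPKM per gene; per the submitters' processing notes they used the build Rnor_6.0, Trimmomatic 0.36 for trimming, edgeR 3.12.1 and, from Subread 1.5.1, featureCounts. The sources used here do not name the aligner, annotation release, strand setting or handling of reads with several places. Value times exon length gave whole reads for 100% of values (tolerance 0.01 read), from which reads and shares were computed. Deposited RPKM are scaled only by library total.

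Tests used limma 3.58.1 (R 4.3.3) with a trended variance on log2(RPKM + 1), on the 10667 genes averaging 1 RPKM or more, adjusted over all of them by Benjamini-Hochberg. Folds on this scale understate changes of low genes. Intervals are at 95%. Shares were compared by exact two-sided permutation. The method was tested on simulated data with planted changes of at least 1.5-fold. That does not cover differences as small as those of the called standard genes. Replicates differed by more than counting noise (chi-square per degree of freedom 4.43 to 15.0), so none was counted as a repeat.

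Members, gene lists and the rule for named genes (lowest p in each direction and subunit, highest and lowest levels, homologous forms with parents, stalk, 5S proteins and Rps6) were chosen with earlier results of these data known. Some named members are given by level only, and some genes that the rule names are not reported here. Promoter sequences are from RefSeq (GRCr8).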

Additional observations from a re-analysis of the deposited data

How the results depend on the processing

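The shares of reads kept their direction under every alternative run (leaving out libraries, exon or symbol choices, summed RPKM, no mitochondrial genes in the total). Leaving out libraries could not turn it, because every DHC share stood above every control share. Removal of the length trend was not among the alternatives for the shares. The ratio of large to small subunit reads differed by 0.0284 with standard symbols only, a choice made after seeing the data, and by 0.0142 from summed RPKM, against 0.0211. Calls depended on the settings. Members called (12) were 4 with trimmed mean or median-of-ratios factors, 5 without a filter, 22 with limma-voom on the recovered reads (which called 4243 genes in all), 7 with the length trend removed, 30 without both libraries numbered 1, 2 at an adjusted p of 0.01, and 2 to 17 with 1 library left out. For the large subunit (8) these were 3, 3, 2, 15, 5, 17, 2 and 2 to 10, and for the small subunit (4) 1, 1, 3, 7, 2, 13, 0 and 0 to 7. Trimmed mean factors turned the calls over all genes from 53.4% to 37.8% higher and those of members from 9 of 12 to 1 of 4. Relative to their own sum (3) the members called were 7 with the length trend removed, 5 without both libraries numbered 1, 0 with standard symbols only and 3 to 5 with 1 library left out. All genes called at an adjusted p of 0.01 were 1949. Calls in the pathway lists (18) were 11 without a filter, 5 at an adjusted p of 0.01 and 8 to 18 with 1 library left out. Uncalled genes near 0 changed sign. Rplp2 was at -0.024 with trimmed mean factors, with or without the replicate block, -0.014 with median-of-ratios factors, -0.059 with the length trend removed, with or without the replicate block, and -0.0052 to 0.12 with 1 library left out. Rpl36al was at -0.0047 with the length trend removed, with or without the replicate block, and Rpl22l1 at 0.13 without both libraries numbered 1 and -0.099 to 0.068 with 1 library left out.

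Same-numbered libraries did not deviate together in every pair (correlations over tested genes 0.228, -0.0495 and 0.0828), so the numbers were not taken as pairs. Over the 98 tested members alone the correlations were 0.244, 0.416 and 0.0926, and each library correlated best with its own number, which is a hint from the data and not from the design. With the replicate block, 43 members were called (40 higher and 3 lower, 33 large and 10 small). Relative to their own sum 8 were called (16 with the length trend removed as well), and 28 in the pathway lists. The 40 higher calls were among 98 tested members, while over all genes the block called 2426 of 10667 higher and 1907 lower. Under this setting members were thus called higher more often than all genes, the reverse of the main fit. With the block and the length trend removed, the members had 12 higher and 6 lower, and the standard genes among them 12 higher and 2 lower. Depth limits the rows of few reads most, such as Rpl38-ps2 with 2 to 14 reads a library and a 95% interval of -0.85 to 1.0.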
